A study of Mus musculus with 12 samples.

Results

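The IgG pull-down was compared with input chromatin in mouse neural stem and progenitor cells, to describe which genes a non-specific antibody recovers more or less often than they occur in the chromatin it was given. The comparison holds 4 of the 12 libraries of the series, 1 IgG and 1 input library from proliferating cells and 1 of each from differentiating cells, and it was read over the 23916 autosomal genes of the 27095 counted. The cells came from the cortex and ganglionic eminences of embryonic day 14.5 mice. Proliferating cells were grown as neurospheres, and differentiating cells were dissociated neurospheres plated on laminin in neuron culture medium. The input samples are labelled WT and have no further allele or agent. The IgG samples carry no genotype label, and the labels name the H3K14ac antibody for input and IgG samples too, although their titles call them input and IgG control. The 6 WT H3K14ac ChIP libraries, 3 per stage, and the Hbo1 null (Kat7-deleted) ChIP libraries, 1 per stage, appear only where their values are set beside those of IgG, and all are read against the same inputs. The study had 4 wild-type foetuses, and no label ties a library to an animal or names a strain. The p-values rest on how far IgG against input differed between the stages, not on a spread between animals, and speak only for these samples.

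Input is the sheared chromatin before any antibody is added, so its counts follow the copy number, the shearing and the sequencing of each stretch of DNA. An IgG control passes the same kind of chromatin over an antibody with no intended target, and what stays behind is the background of the pull-down. Background is known to depend on base composition, on how open the chromatin is and on how repeated sequences are mapped. Vomeronasal, olfactory and Speer genes lie in clusters of near-identical copies, where a read may fit several places.

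Promoter sequences of 4 genes show the range of gene starts that the comparison covers. They are from RefSeq, build GRCm38.p6, and run from 250 bases before to 50 bases after the start in the direction of the gene, with each CG in capitals. The first belongs to the window that rose most among those called, that of 1600014C10Rik (Entrez gene 72244), a clone-named gene, at chr7:38182967-38183266 on the plus strand. The next belongs to the window that fell, that of the vomeronasal receptor gene Vmn1r101 (Entrez gene 100042968), at chr7:20442544-20442843 on the minus strand. Both were picked after their values had been seen, as clone-named or thin windows outside the naming rule. Chil4 (Entrez gene 104183) is a chitinase-like protein gene at chr3:106219430-106219729 on the minus strand. It had the highest mean window count over the 4 libraries in the decile of starts with the least GC. Vinac1 (Entrez gene 668894), at chr2:129065860-129066159 on the minus strand, had the highest in the decile with the most GC. For Chil4 and Vinac1 the choice was among tested windows of genes without predicted or clone names, outside chromosomes 8 and 18.
1600014C10Rik: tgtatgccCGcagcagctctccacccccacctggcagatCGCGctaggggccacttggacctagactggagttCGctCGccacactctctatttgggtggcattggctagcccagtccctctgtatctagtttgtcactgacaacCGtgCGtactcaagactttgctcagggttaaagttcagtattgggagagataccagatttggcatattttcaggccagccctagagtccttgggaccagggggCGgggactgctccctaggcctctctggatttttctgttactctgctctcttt
Vmn1r101: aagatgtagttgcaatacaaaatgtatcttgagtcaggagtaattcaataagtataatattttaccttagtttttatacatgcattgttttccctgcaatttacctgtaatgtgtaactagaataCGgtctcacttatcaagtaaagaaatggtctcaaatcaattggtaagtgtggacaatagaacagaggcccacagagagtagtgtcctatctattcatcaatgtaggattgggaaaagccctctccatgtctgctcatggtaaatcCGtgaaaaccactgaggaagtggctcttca
Chil4: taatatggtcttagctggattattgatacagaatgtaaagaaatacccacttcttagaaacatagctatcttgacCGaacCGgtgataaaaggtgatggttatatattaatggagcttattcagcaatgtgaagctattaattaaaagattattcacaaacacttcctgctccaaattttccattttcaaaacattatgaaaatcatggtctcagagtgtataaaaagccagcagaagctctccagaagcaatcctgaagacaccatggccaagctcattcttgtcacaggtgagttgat
Vinac1: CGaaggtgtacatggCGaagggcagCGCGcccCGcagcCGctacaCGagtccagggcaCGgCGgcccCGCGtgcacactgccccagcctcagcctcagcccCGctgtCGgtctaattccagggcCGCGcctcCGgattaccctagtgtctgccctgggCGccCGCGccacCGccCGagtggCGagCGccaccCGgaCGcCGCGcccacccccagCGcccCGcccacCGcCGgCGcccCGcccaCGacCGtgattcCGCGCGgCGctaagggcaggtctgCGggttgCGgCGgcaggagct
The start of Chil4 was 36% GC with 2 CG and that of Vinac1 75.7% GC with 42 CG. The Chil4 window held 8 and 7 IgG counts in proliferating and differentiating cells against 30 and 35 input counts, and the Vinac1 window 6 and 4 against 31 and 21. Single windows this thin carry little information, so starts were also pooled.

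The IgG libraries held 2526252 and 2771713 gene body counts in proliferating and differentiating cells, and the inputs 11871306 and 12689734. In the 1 kb windows at gene starts the IgG libraries held 84417 and 80371 counts and the inputs 398757 and 409407. An autosomal window had a median of 3 and 2 IgG counts, and 7.70% and 10.8% of windows had none. Gene bodies had a median of 35 and 34 IgG counts, so bodies carry most of the gene-by-gene evidence. Chromatin counts do not report expression, and the cell type of these 4 libraries was not checked by markers. The sex chromosomes, which lie outside the autosomal set, separated IgG from input. The Y genes together reached 661 and 865 CPM in IgG but 13.0 and 15.8 CPM in input, where CPM divides by each library's own sum over gene bodies and multiplies by 1000000. X genes made up 2.00% and 2.40% of IgG and 3.22% and 3.53% of input body counts. One WT ChIP library, differentiating replicate 3, also held Y counts, at 722 CPM, and WT proliferating replicate 1 held 125, while the other 4 held 16.5 to 20.0. The IgG and input chromatin thus differed in sex chromosome content, and effects of the pull-down and of the cells it was made from cannot be told apart in the comparison.

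Of 21049 autosomal gene bodies tested with edgeR (mean of at least 10 counts over the 4 libraries), 1163 were higher in IgG (5.53%) and 681 were lower (3.24%) at an adjusted p under 0.05. The bodies that rose included 80 of 121 pheromone receptor genes of the Vmn2r family, 139 of 476 bodies above 300 kb and 5 of 15 Speer genes. The bodies that fell included 4 of 11 Skint genes, of which 1 rose, and single genes such as Trim12a and Apol10a. Under TMM scaling 1744 were higher and 286 lower, with the median body at -0.03 in place of -0.13 on the log2 scale, and DESeq2 with the same column sums called 277 higher and 46 lower. The test had 1 library per kind and stage and 1 residual degree of freedom, which is the difference between the stages. Its error therefore comes mostly from the spread shared across genes. Across the tested bodies 66.2% had the same sign in both stages, with a correlation across genes of 0.37, and 0.62 over the 12194 bodies with a mean of at least 100 counts (genes are not independent replicates).

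**Figure D1:**
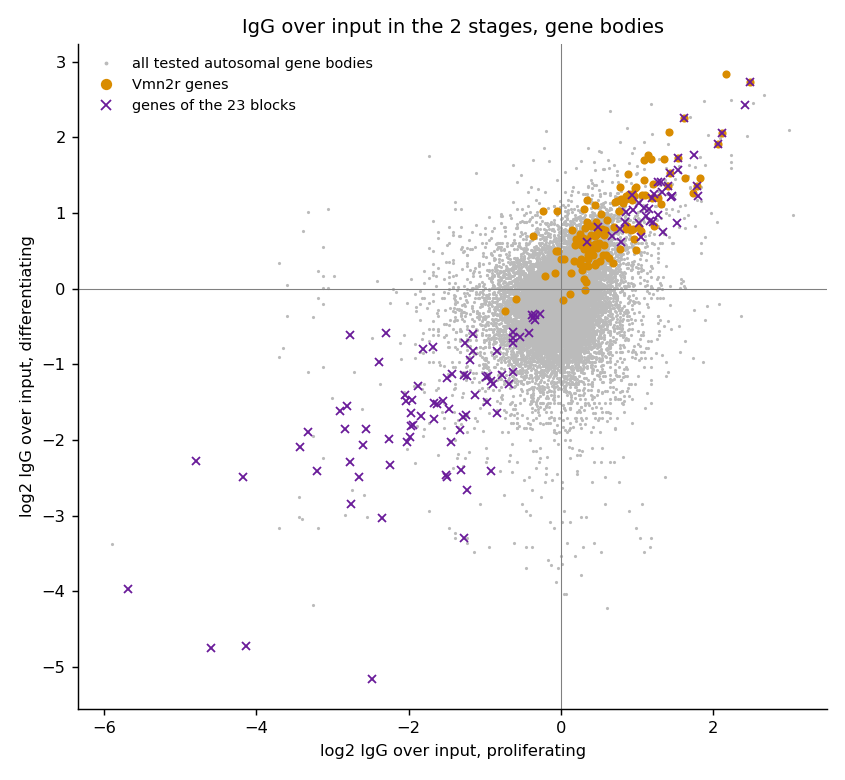
Each point is 1 autosomal gene body, with its log2 IgG over input in proliferating cells on the horizontal axis and in differentiating cells on the vertical axis. Vmn2r genes (orange) lie mostly in the upper right, and genes of 23 blocks of neighbours (purple crosses) lie on both sides of 0.

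Vomeronasal receptors of the Vmn2r family, which detect peptide pheromones in the vomeronasal organ, rose at most of their bodies. All 121 Vmn2r bodies were tested, 80 were higher in IgG (66.1%, against 5.53% of all tested bodies) and 0 were lower. Their median log2 difference was 0.64, against -0.13 over all tested bodies. In 109 of the 121 the ratio was above 0 in both stages, against 22.9% of all tested bodies. Pooled over the family, proliferating cells had a log2 ratio of 0.55 (95% interval 0.51 to 0.59). Differentiating cells had 0.76 (0.73 to 0.80). These intervals cover counting error only. They are exact Clopper-Pearson intervals, except for those of starts against the rest of the body. In the start windows of the same genes the ratio was 1.13 (0.93 to 1.32) and 1.21 (1.05 to 1.37), from 317 and 481 IgG counts. On the 6 chromosomes with at least 7 Vmn2r genes the pooled body ratio ran from 0.15 and 0.44 on chromosome 5, where the first interval included 0, to 0.74 and 0.92 on chromosome 7.

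Vmn2r44, at chr7:8367460-8383238, had the largest rise of all bodies named. It held 36.0 and 52.7 CPM in IgG, 6.40 and 7.88 in input, and 7.70 to 16.6 in the 6 WT ChIP libraries. Both IgG libraries were above every other one of these libraries, with a log2 difference of 2.63 (SE 0.18, adjusted p = 1.49e-43). Vmn2r49, on the same chromosome, held 36.8 and 54.1 against 8.17 and 7.57, a difference of 2.53 (SE 0.18). Vmn2r39, Vmn2r31 and Vmn2r32 followed at 2.08, 1.98 and 1.98. Vmn2r60, with the most counts in the family, rose by 0.40 (SE 0.12, adjusted p = 0.0132), while Vmn2r21 stood at -0.35 (adjusted p = 0.0663). The WT ChIP libraries, which share the inputs, were also above input over the Vmn2r bodies, at 0.19 to 0.65 in proliferating and 0.41 to 0.61 in differentiating cells. The Hbo1 null ChIP libraries stood at 0.63 in both stages, from 180 and 1047 counts.

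The Vmn1r family, the other vomeronasal receptor family, had no body called higher. Of 82 tested Vmn1r bodies 0 were higher and 3 were lower (3.66%), against 5.53% and 3.24% of all tested bodies. The pooled ratio was -0.06 (-0.18 to 0.05) and 0.08 (-0.03 to 0.18). Vmn1r bodies had a median length of 924 bases against 23669 for Vmn2r, so they hold fewer counts. Of 392 tested bodies of up to 1 kb, 1 was higher. Olfactory receptors, the largest family of smell receptors, stood at 0.07 (0.03 to 0.12) and 0.02 (-0.02 to 0.06). Of their 432 tested bodies 21 were higher (4.86%) and 3 lower (0.694%). Taste, trace amine and formyl peptide receptors had no call among 23 tested. The Esp genes, which encode secreted peptides that the vomeronasal organ detects, were looked at after their values had been seen: 6 of 12 tested bodies were higher and 0 lower, with a median of 1.23. Esp34 held 17.0 and 22.0 CPM in IgG against 3.12 and 5.44 in input, a difference of 2.19 (SE 0.25, adjusted p = 2.21e-16). Mrgpra3, a receptor gene of itch-sensing neurons at chr7:47588950-47601372, held 59.8 and 58.8 in IgG, 10.4 and 10.7 in input and 7.49 to 11.8 in the WT ChIP libraries. Its IgG values did not overlap the others, and it rose by 2.49 (SE 0.16, adjusted p = 1.46e-50). Csn1s1, a milk casein gene, rose by 2.02 (SE 0.27), but its 11.1 and 19.1 CPM in IgG overlapped the WT ChIP range of 4.84 to 18.3. The other named rises were Eif4a3l1, an Eif4a3-like gene, at 1.75 and Itln1, an intestinal lectin, at 1.68.

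In pooled counts, bodies above 100 kb gained in IgG and bodies of 1 to 100 kb lost, in both stages. Genes were grouped by length, each class open at its lower bound. Bodies of 1 to 3 kb had a pooled log2 ratio of -0.07 (-0.10 to -0.05) in proliferating cells, and of -0.31 (-0.34 to -0.28) in differentiating ones. For bodies of 3 to 10 kb it was -0.07 and -0.23, for 10 to 30 kb -0.03 and -0.14, and for 30 to 100 kb -0.01 and -0.05. Bodies of 100 to 300 kb stood at 0.01 and 0.02. Bodies above 300 kb reached 0.09 (0.08 to 0.09) and 0.17 (0.17 to 0.18), and those of at least 400 kb 0.11 and 0.21. Bodies of up to 1 kb broke the order in proliferating cells at -0.02 (-0.07 to 0.02) and stood at -0.30 in differentiating cells. The step from 1 to 3 kb to above 300 kb was 0.16 and 0.48. As a difference of medians over genes it was 0.02 and 0.37. By medians, short bodies were not lower in proliferating cells: those of 1 to 3 kb had 0.002, against -0.03 over all tested bodies. Over the same inputs, bodies above 300 kb in the WT ChIP libraries stood at 0.17 to 0.23 and 0.16 to 0.21, and the Hbo1 null libraries stood at 0.08 and 0.12.

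**Figure D2:**
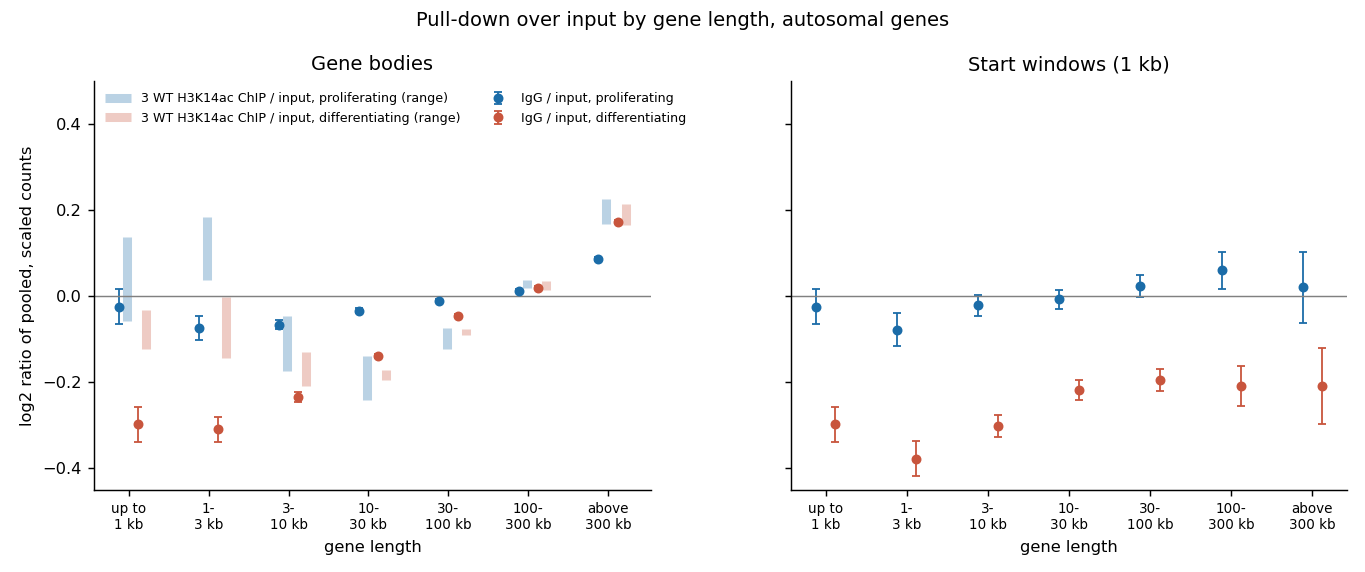
Log2 ratio of IgG over input of pooled counts, scaled by gene body column sums, by gene length class, for bodies (left) and start windows (right). Points are IgG with 95% counting intervals, and bars span the 3 WT ChIP libraries of a stage over the same input. IgG bodies rise from -0.07 and -0.31 at 1 to 3 kb to 0.09 and 0.17 above 300 kb.

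Among bodies above 300 kb 139 of 476 were higher (29.2%) and 16 were lower, against 12 higher and 30 lower of 1896 at 1 to 3 kb. Longer bodies also have more counts, which alone raises the share that a test can call. Csmd3, a large synaptic membrane protein gene, rose by 0.91 (SE 0.09, adjusted p = 5.48e-21) with 0.80 in proliferating and 1.02 in differentiating cells. Grik2, a kainate receptor subunit gene, rose by 0.93 (SE 0.09, adjusted p = 7.10e-21). Both were named after their values had been seen. Of 26 synapse and ion channel genes, of which 17 are longer than 300 kb, 11 were higher and 1 was lower, with a median of 0.23. Cntnap2, a neuronal cell adhesion gene, held 4607 and 6297 IgG counts and rose by 0.40 (SE 0.09, adjusted p = 0.000191). Lrp1b, a lipoprotein receptor family gene, rose by 0.68 (SE 0.09), and Nlgn1, a synaptic adhesion gene, rose by 0.47. Csmd1, a gene related to Csmd3, stood at 0.08 (adjusted p = 0.607), and the glutamate receptor gene Gria1 fell by 0.28 (SE 0.10, adjusted p = 0.0402). The pooled ratio of the list was 0.18 (0.17 to 0.20) and 0.34 (0.33 to 0.36), beside 0.24 to 0.40 and 0.27 to 0.36 in the WT ChIP libraries. Without the genes in the highest 1% of counts the list stood at -0.01 and 0.08.

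The same order of the shortest and longest of these classes was seen among genes with AT-rich and with GC-rich starts. In the 3 deciles of starts with the least GC, bodies of 1 to 3 kb stood at -0.09 and -0.25 and those above 300 kb at 0.10 and 0.22. In the 3 deciles with the most GC the values were -0.06 and -0.23, where the first interval included 0, and 0.07 and 0.15.

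Bodies of genes with AT-rich starts held a larger share of counts in IgG than in input. Base composition was read from the 300 bases around the start for 15923 of the 19411 autosomal protein-coding genes outside chromosome 18 (82.0%). Bodies in the decile with the least GC, 18.3% to 40.3%, stood at 0.16 (0.15 to 0.18) in proliferating and 0.28 (0.27 to 0.29) in differentiating cells. The next decile stood at 0.04 and 0.10, and the decile with the most GC at 0.00 and -0.01. In the first decile 190 of 905 tested bodies were higher and 18 lower. Chemosensory receptor genes made up 1035 of its 1593 members, and the other 558 stood at 0.14 and 0.25. The WT ChIP libraries stood at 0.15 to 0.30 and 0.20 to 0.29 in this decile, and the Hbo1 null libraries at 0.16 and 0.20.

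**Figure D3:**
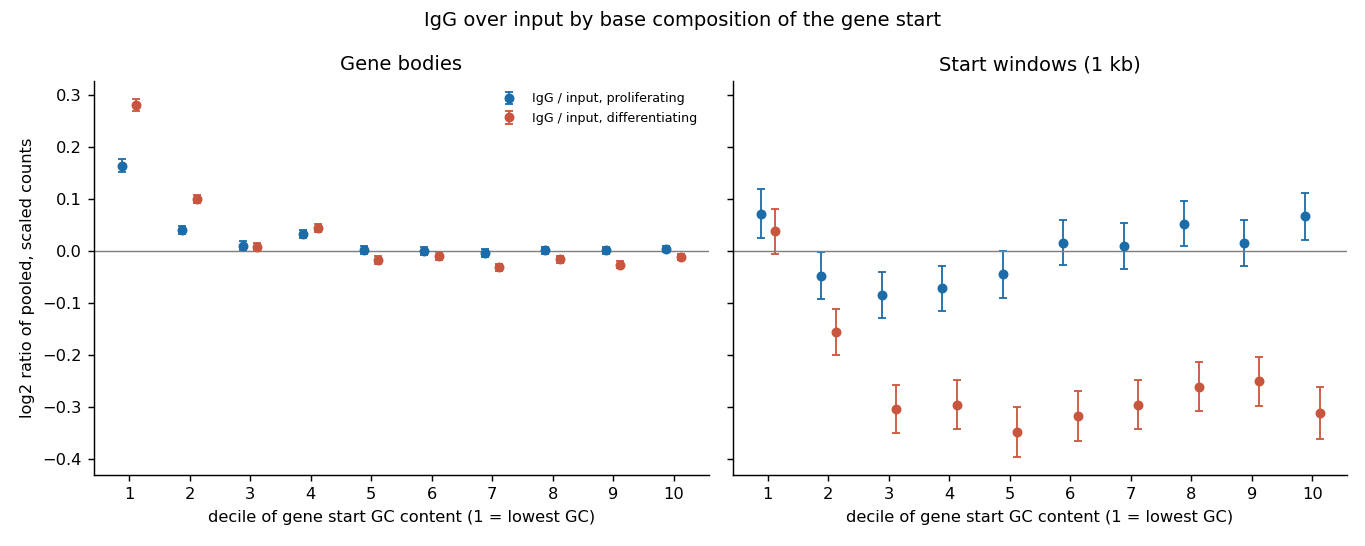
Log2 ratio of IgG over input of pooled counts by decile of GC content at the gene start, from lowest (1) to highest (10), with 95% counting intervals, for bodies (left) and 1 kb start windows (right). Bodies of decile 1 stand at 0.16 and 0.28, and windows of deciles 2 to 5 lie below 0 in both stages. In differentiating cells windows of deciles 2 to 10 lie below 0.

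At the starts themselves, the decile with the least GC was the only one whose pooled window ratio was above 0 in differentiating cells. This holds for pooled counts: the decile minus the other 9 was 0.08 and 0.32 in proliferating and differentiating cells from pooled counts, but 0 and 0 from medians over genes. Its windows stood at 0.07 (0.02 to 0.12) in proliferating and 0.04 (-0.01 to 0.08) in differentiating cells, and without the chemosensory receptor genes at 0.11 (0.03 to 0.19) and 0.09 (0.02 to 0.17). Windows of deciles 2 to 5 were below 0 in both stages, at -0.04 to -0.08 and -0.16 to -0.35. Over all starts with sequence, windows stood at -0.002 and -0.25. In differentiating cells decile 2 was above that value, and deciles 6 to 10 stood at -0.25 to -0.32. In the decile with the most GC the stages had opposite signs, 0.07 (0.02 to 0.11) and -0.31 (-0.36 to -0.26). Taken against the rest of the same gene bodies, which needs no scaling between libraries, windows of the first decile were higher by 0.12 (0.04 to 0.20) and 0.08 (0.01 to 0.15). Deciles 2, 3 and 4 were below 0 in both stages, at -0.06 to -0.10 and -0.20 to -0.34. Over all autosomal genes this measure was -0.01 and -0.26.

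Over all autosomal genes the pull-down lost gene starts in differentiating cells, with little difference in proliferating cells. Windows held 2.94% of autosomal IgG body counts against 2.98% in input in proliferating cells, and 2.39% against 2.87% in differentiating cells. The start against the rest of the body stood at -0.01 (-0.03 to -0.00) and -0.26 (-0.27 to -0.25) in genes longer than 2000 bases. The 3 WT ChIP libraries held 4.34% to 4.52% and 2.89% to 3.40% of autosomal body counts in windows. Windows shared the length order of bodies only in part. They rose class by class from -0.08 and -0.38 at 1 to 3 kb to 0.02 and -0.20 at 30 to 100 kb. Above 300 kb they stood at 0.02 and -0.21, where the first interval included 0. Classes ranged from -0.08 to 0.06 in proliferating cells and from -0.38 to -0.20 in differentiating cells. Windows were also ranked by the H3K14ac level of the WT ChIP libraries of the same stage, as CPM. The decile with the highest level stood at 0.11 (0.07 to 0.14) in proliferating and -0.22 (-0.26 to -0.19) in differentiating cells, above the decile with the lowest level in both, by 0.10 and 0.20. The deciles between them were not in order. In proliferating cells the lowest decile (0.01) was above deciles 2 to 7 (-0.06 to -0.03). In differentiating cells decile 8 (-0.18) was above the highest. The 23 housekeeping genes had windows at -0.43 (-0.86 to -0.03) and -0.80 (-1.26 to -0.37), from 57 and 49 IgG counts, with 0 of their bodies called.

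Single start windows seldom differed. Of 6507 tested windows, 7 were higher (0.108%) and 1 was lower (0.0154%), 387 had an unadjusted p under 0.05, and DESeq2 with the same column sums called 0. The window of Speer4cos, a Speer family transcript, held 37 and 67 IgG counts against 57 and 58 input counts and rose by 2.02 (SE 0.44, adjusted p = 0.00628). It was the only window to pass with a mean of at least 30 counts. The other calls rested on fewer counts. 1600014C10Rik, whose promoter is printed first above, held 30 and 20 IgG counts against 12 and 18, a rise of 2.93 (SE 0.42). Mrgpra3 rose by 2.84 (SE 0.41) at its window, with 19 and 17 counts against 12 and 11. Cd244a, an immune cell receptor gene, Ifi202b, an interferon-induced gene, Gm3476 and Eif4a3l1 rose by 2.19, 1.86, 2.10 and 1.88. Vmn1r101 had 0 counts in both IgG windows against 30 and 20 in input, which is at least 3.60-fold lower with a floor of 3 counts over both IgG libraries. The windows next in line, Ugt1a1, Mroh2a, Sp140 and Hjurp, did not pass, at adjusted p = 0.270 to 0.801.

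Other classes moved less or rested on few genes. Over all tested bodies 5.53% were higher and 3.24% lower, and the calls below are to be read beside these shares. With so few genes in the short lists, 0 calls do not set a list apart from these shares. Alpha-defensins, antimicrobial peptides of the gut, stood at -0.48 (-0.82 to -0.17) and -1.06 (-1.41 to -0.72), with 2 of 13 tested bodies lower and a median of -0.19. Defa33 held 5 and 15 IgG counts against 158 and 214 in input, a difference of -2.01 (SE 0.31, adjusted p = 3.76e-09). Keratins and keratin-associated proteins stood at -0.12 (-0.21 to -0.03) and -0.41 (-0.51 to -0.31), with 3 of 64 tested bodies lower, 0 higher and a median of -0.28. Small nucleolar RNA genes, whose products guide RNA modification, stood at -0.46 (-0.88 to -0.06) and -0.38 (-0.76 to -0.01), from 59 and 71 IgG counts. Imprinted genes stood at 0.17 and 0.18, with 3 of 19 higher, among them the ubiquitin ligase gene Ube3a at 1.25 (SE 0.13, named after its value was seen), and a median of -0.01. Zinc finger (Zfp) genes stood at 0.06 in both stages, with a median of -0.04. Of their 389 tested bodies 29 were higher (7.46%) and 6 lower (1.54%). For Zfp, cytochrome P450, protocadherin, predicted, clone-named, casein cluster and imprinted genes the pooled ratio was above 0 in both stages but the median over genes was below 0 in at least 1 stage. The pooled ratio weights genes by their counts and the median does not. The median over all tested bodies was itself below 0, at -0.03 and -0.17. Medians of Zfp, P450, clone-named and imprinted genes were above it in both stages. Those of protocadherin genes in proliferating cells, and of predicted and casein cluster genes in differentiating cells, were below it. Neural stem and progenitor genes had 0 of 24 bodies called, oligodendrocyte genes 0 of 12 and astrocyte genes 0 of 10. Neuronal differentiation genes had 0 higher and 1 lower of 19. Hox genes, the body axis regulators, stood at 0.02 (-0.11 to 0.15) and -0.41 (-0.56 to -0.27), with 0 of 38 tested bodies called. Some of these lists hold short genes. Median lengths in bases were 973 for alpha-defensins, 2351.5 for keratins, 82.5 for small nucleolar RNA genes and 2951 for Hox genes. All bodies of up to 1 kb stood at -0.02 and -0.30, and those of 1 to 3 kb at -0.07 and -0.31.

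**Figure D4:**
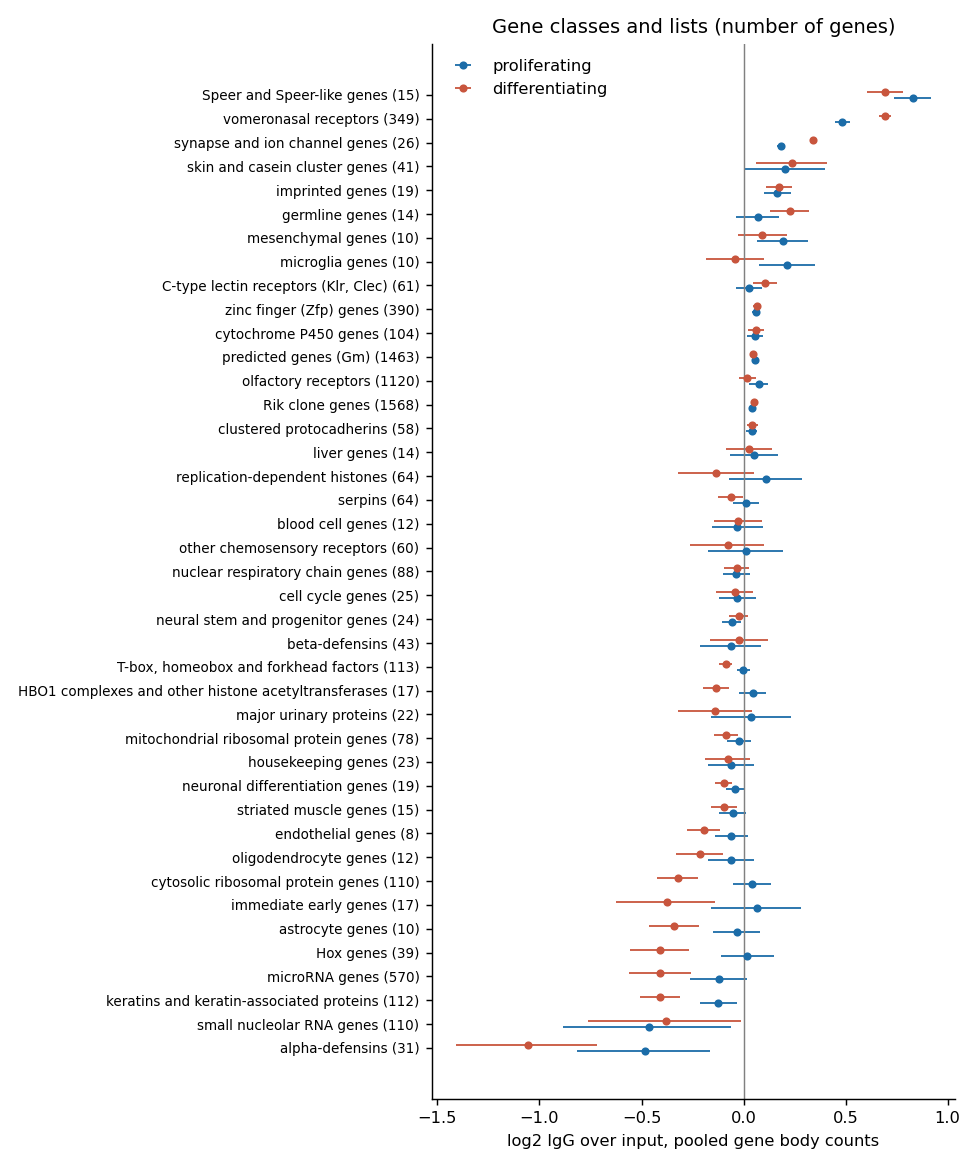
Pooled log2 ratio of IgG over input of gene body counts for each gene class or list, with the number of autosomal genes in brackets and 95% counting intervals, for proliferating (blue) and differentiating (red) cells. Speer genes and vomeronasal receptors stand highest in both stages and alpha-defensins lowest.

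The largest falls were at a few loci where IgG had few or no counts and the 6 WT ChIP libraries did not. Cd300ld4, an immune receptor gene at chr11:115003951-115027070, held 0 and 1 IgG counts against 121 and 107 input counts. Trim12a, of the antiviral Trim family at chr7:104299893-104315558, held 1 and 1 against 170 and 184. These are 0.396 and 0.361 CPM in IgG, 14.3 and 14.5 in input and 12.9 to 17.3 in the 6 WT ChIP libraries, with no overlap. The neighbour Trim5 held 3 and 10 against 176 and 204, a difference of -2.65 (SE 0.34, adjusted p = 6.64e-13). Nlrp1c-ps, an inflammasome pseudogene, held 10 and 13 against 521 and 510, a difference of -3.27 (SE 0.24, adjusted p = 2.17e-38). Apol10a and Apol11a, of the apolipoprotein L family, had differences of -2.88 and -2.81, and the chemokine gene Ccl27b of -2.70. All 10 named falls had both IgG libraries below the 8 WT ChIP and input libraries, as 5.56% of tested bodies did, and 4.5% had both above. Among called bodies 248 of 681 lower and 187 of 1163 higher ones stood apart in this way.

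Skint genes, which shape skin-resident gamma delta T cells, fell at some members. Skint4, Skint3 and Skint9, a run of neighbours, fell together, but the Skint genes flanking the run did not. Skint3 held 3 and 27 IgG counts against 457 and 608 input counts, a difference of -2.96 (SE 0.23, adjusted p = 9.92e-36). Skint4 held 14 and 30 against 628 and 743, a difference of -2.76 (SE 0.20), and Skint9 10 and 21 against 335 and 482, a difference of -2.51 (SE 0.24). Skint6 fell by 1.14 (SE 0.10). The neighbour Skint1 rose by 0.72 (SE 0.21, adjusted p = 0.00811), and Skint2 on the other side stood at 0.21 (adjusted p = 0.509). Of 11 Skint bodies 4 were lower and 1 was higher. Over Skint4, Skint3, Skint9 and Gm12814 together, IgG held 14.2 and 30.3 CPM, input 139 and 164, the WT ChIP libraries 153 to 247 and the differentiating Hbo1 null library 250.

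There were 23 such blocks, runs of at least 3 neighbouring tested bodies that were called the same way and had both IgG libraries outside the 8 others. They hold 118 genes in all: 14 blocks with 79 genes were lower and 9 blocks with 39 genes were higher. Because calls chose the blocks, their values are a description. The block with the most genes ran from Anxa11 to Duxbl3 on chromosome 14 (25842127 to 26269434), 15 genes including repeated Plac9, Tmem254, Cphx and Duxbl copies, at -1.41 and -1.57. A run of 11 genes from Ugt1a10 to Trpm8 on chromosome 1 (88055411 to 88388853), most of them overlapping genes of the bilirubin-conjugating Ugt1a locus, stood at -0.50 and -0.62, with Usp40 before it at 0.13 and 0.14. Pramel genes on chromosome 5 stood at -1.51 and -1.55, and Csta2, Stfa1 and Cstdc3, cysteine protease inhibitor genes on chromosome 16, at -1.01 and -1.04. The Trim block stood at -2.61 and -1.99, and the Cd300ld block at -1.88 and -2.32. The calls outside these blocks were 1124 higher and 602 lower bodies. These counts follow from the block definition, since blocks hold only called bodies, and are no separate test.

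**Figure D5:**
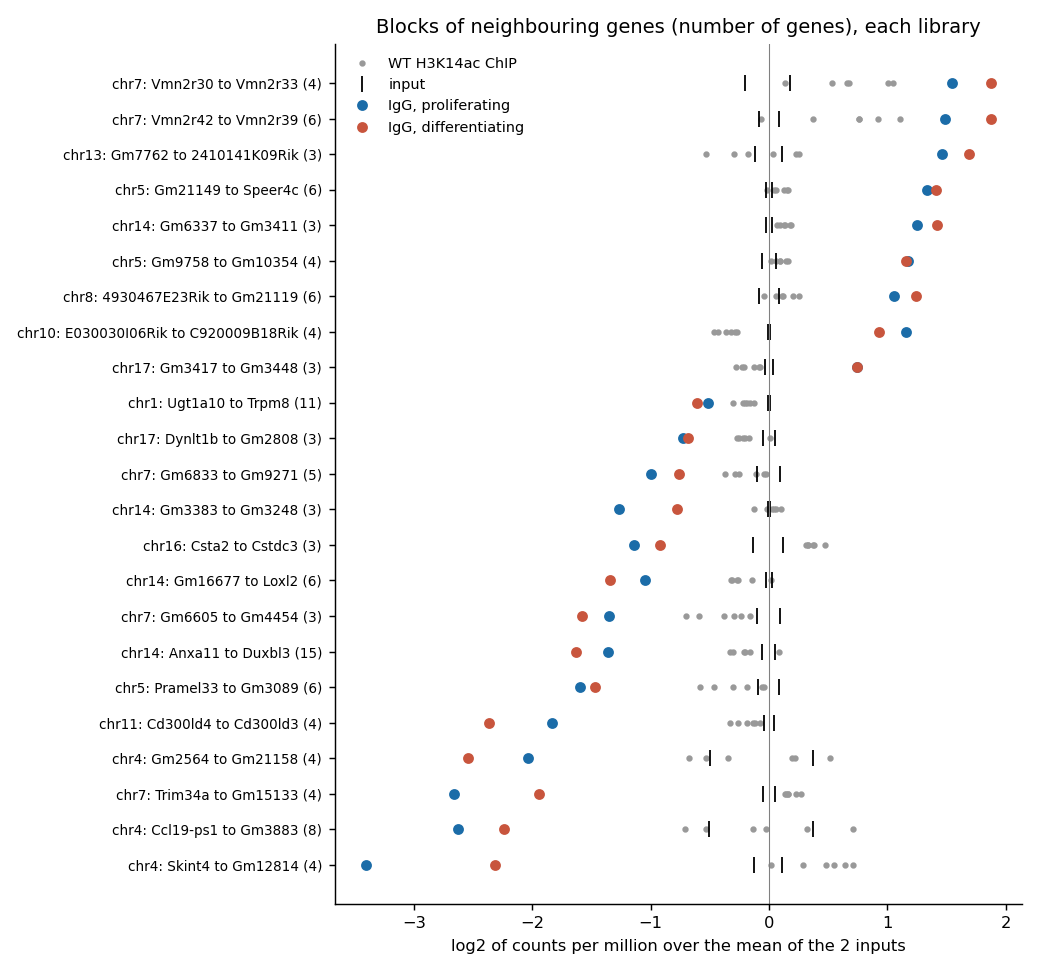
Each row is 1 block of neighbouring genes, and each mark is 1 library's CPM over the mean of the inputs, on a log2 axis. Grey dots are the 6 WT ChIP libraries, black ticks the inputs and coloured points the IgG libraries, which lie outside the others in every row because the blocks were chosen so.

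The higher blocks included 2 runs of Speer genes, a rodent testis-expressed family, on chromosome 5. From Gm21149 to Speer4c IgG held 561 and 591 CPM, input 218 and 227, and the WT ChIP libraries 220 to 249. Speer4cos held 406 and 481 body counts in IgG against 655 and 740 and rose by 1.56 (SE 0.11, adjusted p = 2.77e-45). Speer4c, with 76 and 52 IgG counts, lies within its bounds, and reads of the shared stretch cannot be told apart. Speer8-ps1 rose by 1.30 (SE 0.11). Of 15 Speer bodies 5 were higher and 0 lower, all 5 in these blocks, and the class without the blocks stood at -0.01 and -0.30. The blocks were chosen by these calls, so the value without them only describes the other members. The Hbo1 null libraries stood at -0.03 and -0.07 over the Speer bodies, from 19 and 98 counts. A block on chromosome 10 held H60b and Raet1e, ligands of an activating natural killer cell receptor. H60b rose by 1.33 (SE 0.17) with 91 and 94 IgG counts against 156 and 185, and Raet1e by 0.77 (SE 0.23). The remaining higher blocks held Vmn2r genes on chromosome 7 and predicted or clone-named genes on chromosomes 8, 13, 14 and 17. The differentiating Hbo1 null library, which did not enter the choice, was nearer to input than to IgG on the log2 scale in 7 of 9 higher and 10 of 14 lower blocks. Because IgG was outermost by choice, another library tends to lie nearer to input. The null libraries are also thin, with 64071 and 320601 body counts in proliferating and differentiating cells. Over the block from Gm2564 to Gm21158 they held 0 and 6.24 CPM. Many block genes have near-identical copies, and how reads with several matches were counted is not given in the sources used here.

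Between autosomes the pooled body ratio varied little. Chromosomes 3 (0.09 and 0.15), 6 (0.08 and 0.14) and 10 (0.06 and 0.08) were highest in both stages, and chromosomes 11 (-0.06 and -0.15) and 7 (-0.03 and -0.09) were among the lower ones. The WT ChIP libraries stood at 0.08 to 0.15 and 0.09 to 0.14 on chromosome 3 and at -0.17 to -0.05 and -0.14 to -0.10 on chromosome 11 over the same inputs.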

How the data were processed

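Gene body counts and counts in the 1 kb downstream of each gene start, as deposited by the authors, were raw read counts per gene. Per the submitters' processing notes, bcl2fastq and featureCounts were used with mm10. The aligner, versions, strand setting and the treatment of reads with several matches are not given in the sources used here. Intervals cover counting error only, since reads without molecular identifiers are not independent molecules.

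The IgG and input columns were paired by stage and scaled by gene body column sums. Pooled ratios are ratios of summed counts with exact Clopper-Pearson 95% intervals. For the start against the rest of the body the 95% intervals used a normal approximation on the log scale. Single genes were tested with edgeR 4.0.16 (quasi-likelihood, kind plus stage, 4 libraries, mean count of at least 10, Benjamini-Hochberg adjustment over all genes of the table), which was tested on simulated data. R 4.3.3, DESeq2 1.42.0, Python 3.11.15 and scipy 1.17.1 were used. Per-gene log2 ratios used a prior count of 0.5.

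Of 27095 gene IDs, 25204 matched RefSeq (GRCm38.p6), which gave symbols, chromosomes and starts. The 1891 others, with 2.31% and 2.29% of IgG body counts, entered only the column sums. Gene lengths were those deposited with the gene body counts. Sex chromosome and mitochondrial genes were left out of the comparisons. Base composition was taken from 300 bases at the start, because no genome was used here for whole bodies, and chromosome 18 was left out of it.

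Named genes were the 10 largest rises and falls among called features with a mean of at least 30 counts, one sign in both stages and a symbol that is no predicted or clone name. Where fewer than 5 passed, those with the smallest p were added. The highest-count members of each class were also named. Members, classes and lists were chosen with earlier results of these data known. The patterns of 5 classes were narrowed after their members had been listed, and the Vmn1r, Vmn2r, Esp and Skint families and the 23 blocks were defined after values had been seen. Alternatives were other scalings, DESeq2, other count filters, no stage term, a fit with the 6 WT ChIP libraries added, leaving out libraries, medians over genes, and leaving out the highest 1% of counts.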

Additional observations from a re-analysis of the deposited data

Results flagged for a closer look

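Several groups had ratios of opposite sign in the 2 stages, with both counting intervals clear of 0. With 1 library per kind and stage, these differences between stages were not tested. All are log2 IgG over input, given as differentiating minus proliferating cells. Start windows of genes of 100 to 300 kb differed by -0.27, from 0.06 to -0.21. Windows of chromosome 12 differed by -0.28, from 0.10 to -0.18, and bodies of chromosome 5 by -0.050, from 0.01 to -0.04. Immunoglobulin and T cell receptor V segments, of which 8 of 374 bodies were deep enough to test, differed by -0.62 over bodies and by -0.62 over windows. Windows of GC deciles 8 and 10 differed by -0.31 and -0.38. Windows in deciles 9 and 10 of observed over expected CpG differed by -0.28 and -0.33, and bodies of its decile 9 by -0.017. Windows in deciles 9 and 10 of H3K14ac level differed by -0.26 and -0.33.

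Of the genes outside the autosomal comparison, those of the Y chromosome and the mitochondrial genome stood above input and those of the X chromosome below it. Y chromosome bodies had log2 ratios of 5.67 and 5.78 in proliferating and differentiating cells, mitochondrial genes 0.19 and 0.99, and X chromosome bodies -0.69 and -0.56. The Hbo1 null library of differentiating cells held 446 CPM of Y genes.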

How the results depend on the processing

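The calls depended on the tool and on single libraries. The sign of the step from bodies of 1 to 3 kb to those above 300 kb was the same under each alternative run. So was the sign of vomeronasal bodies. By medians the length step was small in proliferating cells. Against 1163 higher bodies, each alternative's own total was 522 with DESeq2 and its own size factors, 277 with DESeq2 and column sums, 656 without a stage term and 616 with 10 libraries. Against 681 lower bodies these totals were 41, 46, 175 and 206, and TMM gave 286. The calls of the 10-library fit shared 614 higher and 205 lower bodies with the 4-library fit. Leaving out 1 of the 4 libraries from the 10-library fit gave 42 to 325 higher and 35 to 116 lower bodies; it needs the WT ChIP libraries for its error. The fewest came without the differentiating IgG library, and the higher count was 48 without the differentiating and 66 without the proliferating input, with 58 and 62 lower bodies. For windows, 7 higher became 1 and 0 with DESeq2, 14 without a filter, 0 at a mean of at least 30 counts, and 2 at the lowest when a library was left out. The 1 lower window became 0 and 0 with DESeq2, 0 at a mean of at least 30, 11 without a stage term, 8 with 10 libraries and 0 to 4 when a library was left out. The causes were not tested.

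With medians over genes in place of pooled counts, the length step was 0.019 and 0.37 (proliferating and differentiating), and without the highest 1% of counts 0.11 and 0.39. The lowest GC decile of windows minus the other 9 was 0.08 and 0.32 pooled, 0 and 0 by medians, and 0.37 in differentiating cells without chemosensory genes. The H3K14ac step was 0.19 and 0.093 by medians. Vomeronasal bodies stood at 0.40 and 0.58 by medians and 0.41 and 0.63 without the blocks. Their windows stood at 0.15 and 0.15 by medians, and at 0.54 in differentiating cells when scaled by window sums. The synapse list stood at 0.14 and 0.31 by medians and at -0.011 and 0.075 without the highest 1% of counts. Medians turned negative for zinc finger genes (-0.056 in differentiating cells), protocadherins (-0.059 and -0.13), P450 genes (-0.13 in differentiating cells), predicted genes (-0.00105 and -0.18), clone-named genes (-0.030 and -0.13), skin and casein cluster genes (-0.19 in differentiating cells) and imprinted genes (-0.00178 and -0.022). These are to be read beside the median over all tested bodies, -0.03 and -0.17. Speer bodies stood at -0.10 by median in differentiating cells, and without the blocks at -0.011 and -0.30 for bodies and -0.11 and -0.53 for windows. The share of counts in windows, IgG minus input over all genes, was -0.0174 and -0.327 percentage points. It was -0.0429 and -0.481 over autosomal genes and -0.419 in differentiating cells over genes longer than 2000 bases. The start against the rest in genes longer than 10000 bases was -0.23 in differentiating cells. The alternatives without blocks or chemosensory genes were chosen after seeing the data, and the blocks hold only called bodies.

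Of 240 alternatives for the 20 named bodies 226 kept their call and 14 lost it, and of 89 for the 8 named windows 54 did and 35 lost it. The stage term paired IgG and input by stage. By replicate number, no paired analysis was possible because the IgG columns carry none and each stage has 1 library of each kind. The depth of the IgG libraries, with a median of 3 and 2 counts per window, limits what single windows can show.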
